A study of Homo sapiens with 6 samples.

Results

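This account covers 9 genes of a nuclear RNA compartment: the long noncoding RNAs NEAT1, MALAT1 and NORAD, and the genes of the paraspeckle proteins SFPQ, NONO, PSPC1, RBM14, HNRNPK and HNRNPM. They were chosen by name and matched by Ensembl identifier, and all 9 were found among the 57820 genes of the count files. The choice was made with results of these data already known, so the contrast of the 3 noncoding RNAs is described without a test. The RNA came from C4-2B-ENZR, prostate cancer cells of human origin that resist the drug enzalutamide. In 3 libraries the cells had received an siRNA against RUVBL1, and in the 3 others a negative-control siRNA. RUVBL1 encodes an ATPase of chromatin remodelling and protein assembly complexes, and the study's title places it upstream of PLXNA1, CRAF and MAPK in resistance. All libraries came from a single cell line, and the labels do not say whether they came from separate cultures, so a p-value here speaks of the spread among these 6 libraries and not of independent cultures.

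Paraspeckles are nuclear bodies built on the long form of NEAT1, which binds the related proteins SFPQ, NONO and PSPC1 along its length. A short, polyadenylated form starts at the same promoter, and HNRNPK favours the long form by limiting the early polyadenylation. MALAT1, a gene close to NEAT1, gives an abundant RNA of nuclear speckles, the neighbouring bodies rich in splicing factors. NORAD binds Pumilio proteins such as PUM2, repressors of target mRNAs, through repeated elements.

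The sequence of NORAD shows that repetition. The transcript of 5339 bases held 15 copies of the Pumilio element TGTANATA, or 2.81 per kb, all searched on the transcript strand. Among 4344 genes whose longest transcript had 0.8 to 1.2 times its length, 41.4% held any such element and 3, NORAD among them, held at least 15. In 3 places 2 elements lay with their starts 9 bases apart, and these pairs are shown here from GENCODE 29 (GRCh38, minus strand, 5′ to 3′), with the elements in capitals. They lie at chr20:36049497-36049525, chr20:36048300-36048328 and chr20:36047664-36047692, in the single exon of the noncoding gene.

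NORAD pair 1: tatctgTGTATATAgTGTACATAaaggac
NORAD pair 2: ctatacTGTATATAtTGTATATAtaacgg
NORAD pair 3: gtgctgTGTATATAgTGTATATAagcgga

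**Figure D1:**
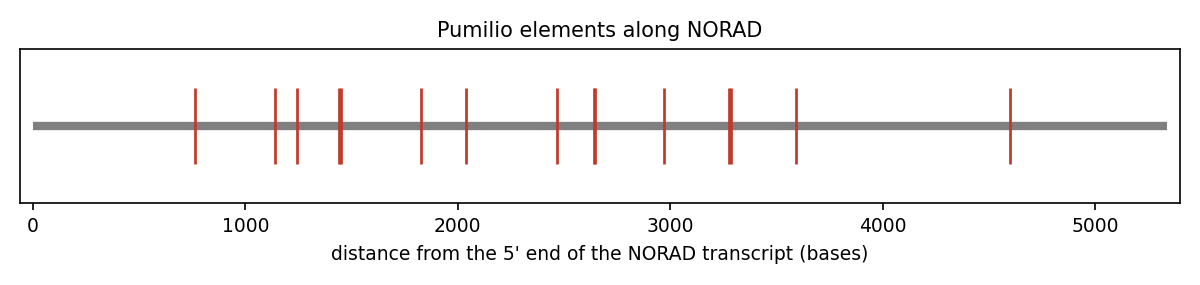
Positions of the Pumilio elements (red lines) along the NORAD transcript (grey bar), as distance in bases from its 5′ end. The 15 elements start between bases 761 and 4599, and 3 pairs lie 9 bases apart.

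The long form of NEAT1 and MALAT1 share a kind of 3′ end that carries no poly(A) tail made by the usual machinery. RNase P cuts off a tRNA-like RNA, and U-rich stretches fold with an A-rich tract into a triple helix that protects the end. Both ends are shown because the capitals are the same letters in both RNAs: they mark the U-rich stretches TTTCTTTT and TTTTGCTTTT and the A-rich tract AAAAAGCAAAA. The tract was in the longest transcript of 351 of 58721 genes (0.598%), and with either U-rich stretch in the 110 bases before it in 8 (0.0136%). The stretches are on the plus strand of GRCh38, at chr11:65445420-65445540 for NEAT1 and chr11:65505996-65506116 for MALAT1, as read from the GENCODE 29 transcripts. The NEAT1 transcript ends with the tract. The MALAT1 transcript holds 2 matches of the tract, and 353 annotated bases follow the last one, which is shown.

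NEAT1 long-form end: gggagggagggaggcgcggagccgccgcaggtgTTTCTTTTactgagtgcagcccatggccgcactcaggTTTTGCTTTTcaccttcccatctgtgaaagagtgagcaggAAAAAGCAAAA
MALAT1 end: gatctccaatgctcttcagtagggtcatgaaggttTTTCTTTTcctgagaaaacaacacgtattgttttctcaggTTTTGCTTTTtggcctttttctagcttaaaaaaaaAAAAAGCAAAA

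The short NEAT1 form ends much earlier, at base 3716 of the 22743 bases of the long one. The last bases of its end, at chr11:65426454-65426513 on the plus strand, are shown because both forms fall into the same gene count. Capitals mark a TGTA, letters recognised by a cleavage factor of polyadenylation, and the polyadenylation signal AATAAA. Of the 8 NEAT1 transcripts in GENCODE 29, 7 end at that base or earlier, so a NEAT1 count does not say which form the reads came from.

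NEAT1 short-form end: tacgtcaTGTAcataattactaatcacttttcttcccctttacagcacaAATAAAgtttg

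The libraries held between 18985542 and 36054489 estimated counts. RUVBL1 itself fell in the siRUVBL1 libraries, to 2685 ± 57.8 normalized counts against 4698 ± 54.1 in control libraries (SD, n = 3 each; log2 fold change -0.81 ± 0.0253 SE; edgeR adjusted p = 3.74e-10). Its partner RUVBL2 fell as well (log2 fold change -0.19, edgeR adjusted p = 0.0014), a call lost when library totals alone set the scale (-0.09, edgeR adjusted p = 0.0977). Normalized counts are counts scaled to a common effective library size, a fold change is RUVBL1 siRNA over control siRNA, and the threshold was an adjusted p of 0.05. The label of a prostate line was checked with markers of luminal prostate cells, and KLK3, the gene of prostate-specific antigen, was counted between 8834 and 14960 times per library. Of 9 matched stromal, endothelial and immune markers, COL1A2 and CD3E were listed at 0 in all libraries and the highest, COL1A1, had 185 to 324 counts. Because RNA was taken in bulk, fewer cells of a kind and less RNA per cell cannot be told apart.

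The 3 noncoding RNAs were listed at 0 in replicate 1 of both groups. This was a property of a gene class: of 14111 genes with at least 20 counts in each library of replicates 2 and 3, 541 were at 0 in both replicate 1 libraries. They included 375 of 409 long intergenic RNA genes (91.7%), against 12 of 11787 protein-coding genes (0.102%) and 5 of 610 antisense genes (0.820%). MALAT1, NEAT1 and NORAD ranked 1, 2 and 3 of the 541 by count in each of the 4 other libraries. Together they gave 68.3% of the counts of those genes in both siRUVBL1 libraries and 67.8% in both control libraries. Of 15 other known long noncoding RNAs with at least 20 counts, 5 were at 0 in replicate 1, namely CYTOR, RMRP, JPX, MIR22HG and EPB41L4A-AS1. OIP5-AS1, a cytoplasmic RNA, was at 84 counts in siRUVBL1 replicate 1 and 116 in control replicate 1, against at least 2585 counts in the others. All values of the 3 RNAs below are therefore from replicates 2 and 3.

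NEAT1 (ENSG00000245532, chr11:65422774-65445540, plus strand of GRCh38 in GENCODE 29, like the positions that follow), the scaffold of paraspeckles, was 1.95-fold higher in the siRUVBL1 libraries. It had 67469 and 61864 deposited counts in siRUVBL1 replicates 2 and 3, against 45324 and 37691 in control replicates 2 and 3. After scaling it stood at 72729 and 72843 normalized counts in siRUVBL1 libraries and at 37417 and 37254 in control libraries. Both siRUVBL1 libraries were far above both control libraries, and libraries of a group were close together. The log2 fold change was 0.96 ± 0.00642, an SE that is the counting noise alone, since the 2 libraries of a group differed by less. NEAT1 took 0.263% of all counts in each siRUVBL1 library and 0.126% in each control library.

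Few genes with at least 1000 normalized counts, a bound far below the counts of NEAT1, differed in this direction as much. NEAT1 was chosen with results known, so its rank is a description only. Of 5655 genes with a mean of at least 1000 normalized counts, 8 had a larger log2 fold change than NEAT1, and the median of all of them was -0.06. The genes at 0 in replicate 1 leaned upward as a class, with a median log2 fold change of 0.27. Among these 541 genes, 16 had a larger fold change than NEAT1.

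MALAT1 (ENSG00000251562, chr11:65497688-65506516), the speckle RNA, hardly differed between the groups. It had 171612 and 157419 deposited counts in siRUVBL1 replicates 2 and 3, against 220263 and 183087 in control replicates 2 and 3. Scaled, these were 184992 and 185355 normalized counts in siRUVBL1 libraries and 181837 and 180966 in control libraries. The groups did not overlap, but the gap was small beside that of NEAT1, with a log2 fold change of 0.03 ± 0.00422 (SE). It was below that of 418 of the 541 genes at 0 in replicate 1.

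NORAD (ENSG00000260032, chr20:36045622-36050960), the Pumilio-binding RNA, lay between them at 1.31-fold. It had 6195 and 5728 deposited counts in siRUVBL1 replicates 2 and 3, against 6169 and 5217 in control replicates 2 and 3. Scaled, these were 6678 and 6745 normalized counts in siRUVBL1 libraries and 5093 and 5157 in control libraries. Both siRUVBL1 libraries were again above both control libraries, with a log2 fold change of 0.39 ± 0.0223 (SE). The siRUVBL1 libraries were the higher ones, without overlap, for all 3 RNAs. Of the 16416 genes tested in these 4 libraries, 71.2% had groups that did not overlap, 36% with the siRUVBL1 libraries higher and 35.2% with them lower. Scaling by library totals alone moved the median log2 fold change of all genes from 0.01 to 0.11, and gave 1.06 for NEAT1, 0.13 for MALAT1 and 0.49 for NORAD.

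**Figure D2:**
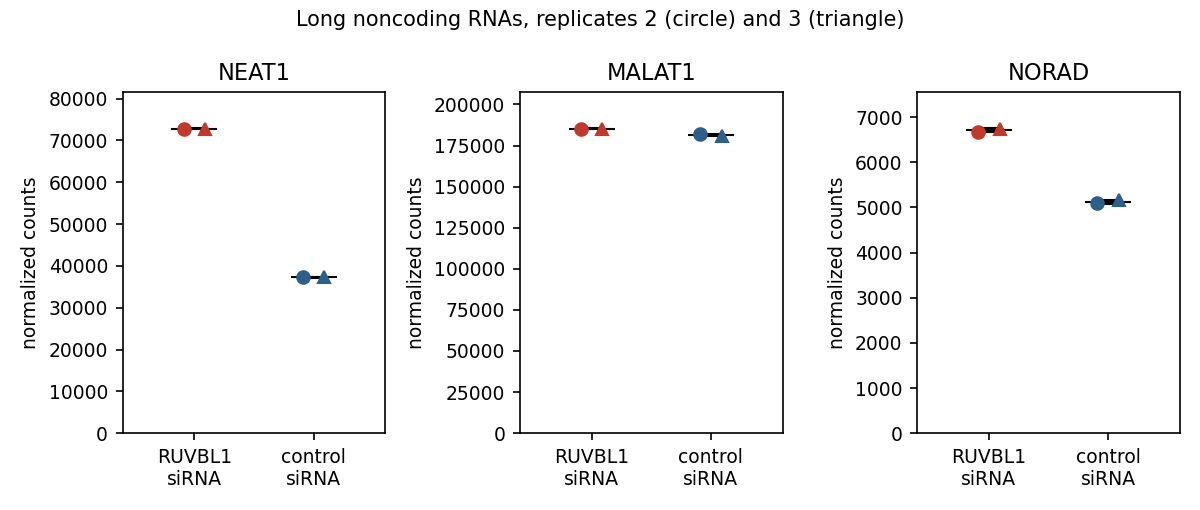
Normalized counts of NEAT1, MALAT1 and NORAD in RUVBL1 siRNA (red, left) and control siRNA (blue, right) libraries of replicates 2 and 3, with the mean and SD as bars. NEAT1 stood at 72729 and 72843 against 37417 and 37254, while the MALAT1 groups differed by a log2 fold change of 0.03.

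The difference between NEAT1 and MALAT1 needs no scaling between libraries, since both were counted in the same library. There were 0.393 NEAT1 counts per MALAT1 count in each siRUVBL1 library, against 0.206 in each control library, a 1.91-fold difference. Per NORAD count, NEAT1 had 10.9 and 10.8 counts in siRUVBL1 libraries and 7.35 and 7.22 in control libraries, or 1.49-fold more. MALAT1 per NORAD count went the other way, with 27.7 and 27.5 in siRUVBL1 libraries and 35.7 and 35.1 in control libraries. None of these ratios overlapped between the groups, and neither did 71.2% of single genes in these 4 libraries. The ratios come from the same counts as the fold changes above and are not separate evidence.

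The 5 named genes most like NEAT1 were found by the distance between log2 values centred on the mean of the 4 libraries, among 11646 genes with at least 100 normalized counts on average. They were PCK2, a mitochondrial enzyme of gluconeogenesis (distance 0.0264), NINL, a centrosomal protein (0.0570), ZBED3, a zinc finger protein (0.0619), HOXC4, a homeobox factor (0.0701), and SESN2, a stress-induced sestrin (0.0742). PCK2 had 9608 and 9534 normalized counts in siRUVBL1 libraries and 5010 and 4975 in control libraries. SESN2 had 1451 and 1404 in siRUVBL1 libraries and 700.1 and 740.3 in control libraries. The measure covers only 4 libraries in 2 groups, so it ranks genes mainly by the size of their difference.

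Among the protein genes, NONO (ENSG00000147140, chrX:71283192-71301168) fell and SFPQ (ENSG00000116560, chr1:35176378-35193148) rose. NONO, which pairs with SFPQ and PSPC1 through a shared coiled-coil fold, had 11152, 11450 and 11235 normalized counts in siRUVBL1 replicates 1 to 3, against 13579, 13401 and 13398 in control replicates 1 to 3. Every siRUVBL1 library was below every control library, at 83.8% of the control level on the fitted scale (log2 fold change -0.25 ± 0.0176 SE, edgeR adjusted p = 2.18e-07). SFPQ, a splicing factor needed to keep paraspeckles together, had 10104, 9822 and 10157 normalized counts in siRUVBL1 libraries and 9013, 9078 and 8866 in control libraries. Here every siRUVBL1 library was above every control library (log2 fold change 0.16 ± 0.0192 SE, edgeR adjusted p = 2.91e-05). Both kept their direction and their call when library totals alone set the scale.

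PSPC1 (ENSG00000121390, chr13:19674752-19783019), the least abundant of the 3 relatives per length of exon, did not pass the test. It had 1545, 1557 and 1585 normalized counts in siRUVBL1 libraries and 1694, 1614 and 1623 in control libraries. The siRUVBL1 libraries were the lower ones without overlap, but the gap was close to the spread (log2 fold change -0.07 ± 0.0321 SE, edgeR adjusted p = 0.0913).

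Because SFPQ and NONO differed in opposite directions, the ratio of their counts was looked at after their values were seen. There were 0.906, 0.858 and 0.904 SFPQ counts per NONO count in siRUVBL1 libraries, against 0.664, 0.677 and 0.662 in control libraries. The means were 0.889 ± 0.0273 in siRUVBL1 libraries and 0.668 ± 0.00852 in control libraries (SD, n = 3 each), a 1.33-fold difference. These ratios could not overlap, since every siRUVBL1 library was higher for SFPQ and lower for NONO. They come from the same counts and are not separate evidence, and 52.6% of single genes in the 6 libraries did not overlap either. PSPC1 per NONO count differed less, at 0.139 ± 0.00254 in siRUVBL1 libraries and 0.122 ± 0.00231 in control libraries (SD, n = 3 each).

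**Figure D3:**
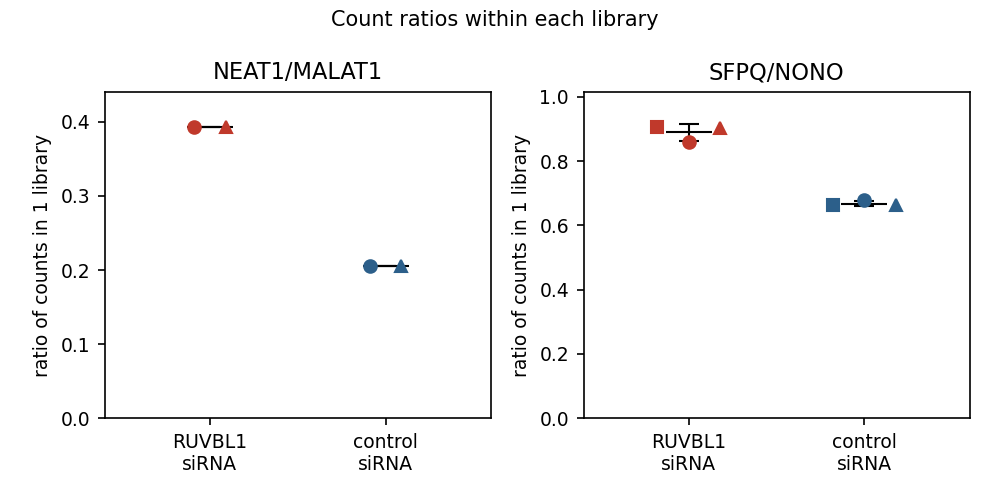
Counts of NEAT1 per MALAT1 count (replicates 2 and 3) and of SFPQ per NONO count (replicates 1 to 3) within each library, RUVBL1 siRNA in red on the left and control siRNA in blue on the right; squares, circles and triangles are replicates 1, 2 and 3, and bars are mean and SD. The NEAT1 ratio was 0.393 in each RUVBL1 siRNA library against 0.206 in each control library, and the SFPQ ratio averaged 0.889 against 0.668.

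RBM14 and HNRNPK fell by small amounts, and both calls were lost when library totals alone set the scale, where HNRNPK also turned in direction. RBM14 (ENSG00000239306, chr11:66616582-66627347), a coactivator with a prion-like domain that paraspeckles need to assemble, had 1450, 1397 and 1409 normalized counts in siRUVBL1 libraries and 1475, 1534 and 1610 in control libraries. Its groups did not overlap but came close, between siRUVBL1 replicate 1 and control replicate 1 (log2 fold change -0.12 ± 0.0369 SE, edgeR adjusted p = 0.0208). With library totals alone the log2 fold change of RBM14 was -0.02 and no longer called (edgeR adjusted p = 0.732), and the call was also lost without either siRUVBL1 replicate 2 or 3 or control replicate 2 or 3 (edgeR adjusted p = 0.0509 to 0.0855). A readthrough gene, RBM14-RBM4, overlaps it with 31.8 to 81.4 counts per library, so some reads may have been split.

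HNRNPK (ENSG00000165119, chr9:83968083-83980616), the most abundant of the 6 per length of exon, had 19915, 19915 and 20250 normalized counts in siRUVBL1 libraries and 20720, 20959 and 21183 in control libraries. The siRUVBL1 libraries were all lower (log2 fold change -0.07 ± 0.0191 SE, edgeR adjusted p = 0.0152), but library totals alone turned the log2 fold change to 0.03 (edgeR adjusted p = 0.181). Its call was lost without siRUVBL1 replicate 2 or control replicate 2 or 3, with edgeR adjusted p-values of 0.0515 to 0.0692. HNRNPM (ENSG00000099783, chr19:8444767-8489114), a splicing regulator of the same class of RNA-binding proteins, had 8539, 8380 and 8376 normalized counts in siRUVBL1 libraries and 8511, 8559 and 8741 in control libraries. Its groups overlapped and it did not pass (log2 fold change -0.03 ± 0.0182 SE, edgeR adjusted p = 0.232), while library totals alone gave 0.07 and a call (edgeR adjusted p = 0.00985).

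Of the 6 protein genes, 1 rose and 3 fell, and 5 had groups that did not overlap. Over the 16006 genes tested in the 6 libraries, edgeR called 42.2%, 19.1% as risen and 23.1% as fallen, and 52.6% had groups that did not overlap, 25.3% with the siRUVBL1 libraries higher and 27.4% with them lower. With replicates 2 and 3 alone 1 of the 6 rose and 3 fell as well. Nothing particular to the 6 can be read from their count beside that background.

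**Figure D4:**
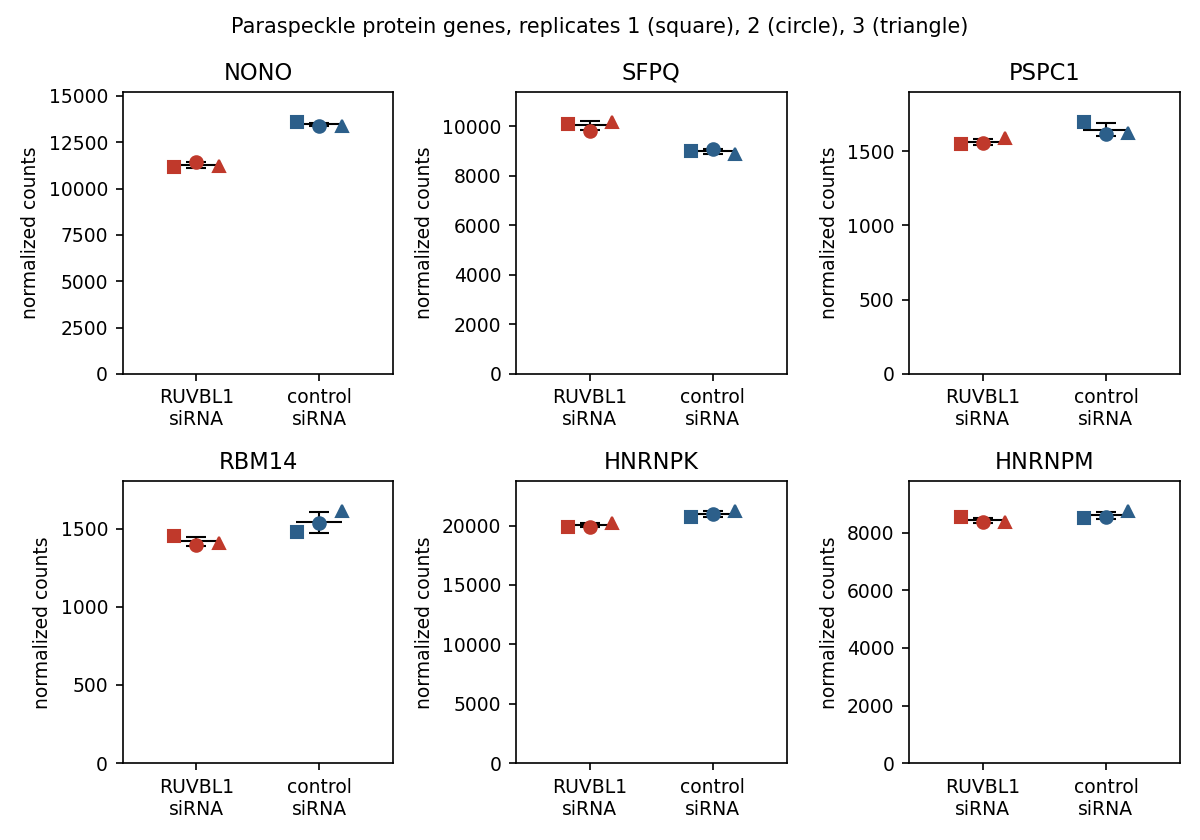
Normalized counts of the 6 paraspeckle protein genes in RUVBL1 siRNA (red, left) and control siRNA (blue, right) libraries, with the mean and SD of 3 libraries. NONO stood at 11152 to 11450 against 13398 to 13579 and SFPQ at 9822 to 10157 against 8866 to 9078; the small gaps of HNRNPK, PSPC1 and HNRNPM change sign when library totals alone set the scale.

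Levels of different genes were set side by side as CPM per kilobase of exon, using GENCODE 29 lengths. MALAT1 led with 732 ± 1.02 in siRUVBL1 libraries and 717 ± 2.43 in control libraries (SD, n = 2 each), followed by HNRNPK with 149 ± 1.43 and 156 ± 1.72 (SD, n = 3 each). NEAT1 came next in siRUVBL1 libraries at 112 ± 0.123, above NONO at 80.9 ± 1.10. In control libraries NEAT1, at 57.2 ± 0.176, was below NONO at 96.5 ± 0.744 and near HNRNPM at 58.2 ± 0.819. The NEAT1 level was divided by 22767 bases, the exons of all its transcripts joined. The same counts would give a higher level over the short form. SFPQ had 51.3 ± 0.921 in siRUVBL1 libraries and 45.9 ± 0.554 in control libraries, and NORAD 43.8 ± 0.307 and 33.5 ± 0.295. RBM14 and PSPC1 were the lowest, at 13.7 ± 0.265 and 12.3 ± 0.162 in siRUVBL1 libraries and 14.8 ± 0.649 and 12.9 ± 0.345 in control libraries.

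Genes that work with the members were taken from 4 lists, and no list was tested as a set. Over all 16006 genes tested in the 6 libraries, 19.1% rose and 23.1% fell. Of 32 other paraspeckle proteins tested, 7 rose and 12 fell, with a median log2 fold change of -0.05 against 0.01 over all genes. HNRNPA1, a splicing repressor, rose (log2 fold change 0.25, edgeR adjusted p = 4.83e-07), as did HNRNPH3 (0.30, edgeR adjusted p = 3.43e-06) and the zinc finger protein ZNF24 (0.29, edgeR adjusted p = 5.21e-06). HNRNPF, which binds G-rich RNA, fell (-0.21, edgeR adjusted p = 4.23e-06). With library totals alone 11 rose and 4 fell. That scaling moved the calls of all genes the same way, to 4981 risen and 2297 fallen of 16006, against 3060 and 3695 with TMM factors, and the lists that follow are to be read beside that shift.

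Of 24 nuclear speckle and SR proteins, where MALAT1 resides, 5 rose and 9 fell, with a median of -0.01. SRSF5, an SR splicing factor, rose (log2 fold change 0.26, edgeR adjusted p = 1.46e-07). SON and SRRM1, large scaffolding proteins of speckles and splicing, fell (-0.27, edgeR adjusted p = 1.13e-06, and -0.39, edgeR adjusted p = 8.21e-07), and so did SRPK1, a kinase of SR proteins (-0.35, edgeR adjusted p = 2.75e-06). With library totals alone 12 rose and 4 fell.

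Of 14 factors that process or stabilise the MALAT1 end, 1 rose and 4 fell, with a median of -0.05. These counts stand beside 19.1% risen and 23.1% fallen over all genes tested. ELAC2, the nuclease that trims the tRNA-like product, fell (log2 fold change -0.18, edgeR adjusted p = 0.000159), and so did the RNase P subunits RPP21 (-0.24, edgeR adjusted p = 0.000357) and POP1 (-0.27, edgeR adjusted p = 0.0147). RPP14, also assigned to RNase P, rose (0.20, edgeR adjusted p = 0.0119). The RPP14 call was lost without siRUVBL1 replicate 2 or control replicate 1 or 2 (edgeR adjusted p = 0.0517 to 0.0636), and the POP1 call without siRUVBL1 replicate 2 or control replicate 3 (edgeR adjusted p = 0.0660 and 0.0690) and with library totals alone (edgeR adjusted p = 0.101). With library totals alone 3 rose and 2 fell.

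Of 8 proteins that bind NORAD or its complex, 2 rose and 3 fell, with a median of -0.01. The shares over all genes tested were again 19.1% risen and 23.1% fallen. PUM2 rose (log2 fold change 0.32, edgeR adjusted p = 2.7e-05). The splicing factor CDC5L fell (-0.43, edgeR adjusted p = 1.98e-07), the topoisomerase TOP1 fell (-0.11, edgeR adjusted p = 0.00128) and the splicing factor PRPF19 rose (0.07, edgeR adjusted p = 0.0219). The PRPF19 call was lost without any 1 library other than siRUVBL1 replicate 1 (edgeR adjusted p = 0.0521 to 0.140) and without the low-count filter (edgeR adjusted p = 0.155). With library totals alone 5 rose and 1 fell, and TOP1 was at -0.01 and no longer called.

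**Figure D5:**
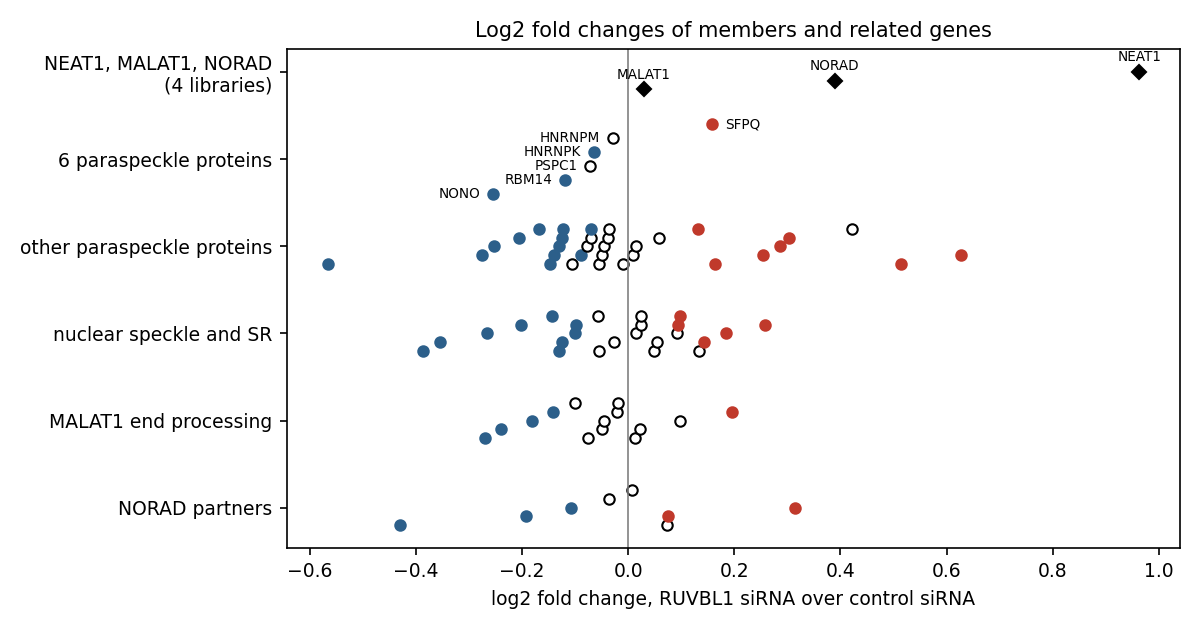
Log2 fold change (RUVBL1 siRNA over control siRNA) of the members and of the 4 lists of related genes, 1 symbol per gene. Red and blue circles are genes that rose or fell in edgeR (6 libraries), and open circles did not pass. Black diamonds are described without a test (4 libraries). NEAT1 at 0.96 lies right of every gene of these 4 lists, and the other known long noncoding RNAs are not drawn.

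Other known long noncoding RNAs with at least 1000 counts in each library of replicates 2 and 3 were set beside the 3 RNAs, from the same 4 libraries. No test was planned for this list. The p-values of these 4 libraries rest on 2 libraries a group, and replicate 1 was left out with its values known. The snoRNA host DANCR had a log2 fold change of 0.38 (edgeR adjusted p = 1.81e-15), close to that of NORAD. OIP5-AS1 was at 0.30 (edgeR adjusted p = 3.39e-10) and TUG1 at 0.11 (edgeR adjusted p = 0.00082). The snoRNA hosts GAS5 and SNHG1 were lower in siRUVBL1 libraries, at -0.17 (edgeR adjusted p = 4.31e-07) and -0.23 (edgeR adjusted p = 3.07e-07). Of the 17 known noncoding RNAs tested in these 4 libraries 7 rose and 2 fell, where edgeR called 45.1% of all genes, 20.9% as risen and 24.2% as fallen. The log2 fold changes of these 17 ran from -0.44 to 1.84, so the highest was above NEAT1 at 0.96. With all 6 libraries 3 of 16 rose and 1 fell. DANCR and TUG1 were still called there (edgeR adjusted p = 0.00506 and 0.00544), and so was SNHG1 (edgeR adjusted p = 0.0221), although not without siRUVBL1 replicate 2 or control replicate 2 or 3 (edgeR adjusted p = 0.0728 to 0.0863) nor with library totals alone (edgeR adjusted p = 0.0907). GAS5 and OIP5-AS1 were not called with all 6 libraries (edgeR adjusted p = 0.134 and 0.922), where the groups of both overlapped, and were called there once the replicate number was a block (edgeR adjusted p = 6.47e-08 and 4.18e-08).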

How the data were processed

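RNA-seq of total RNA was deposited as 1 file of estimated counts per gene for each of 6 libraries, not scaled by the authors as far as the values show. The aligner named is Bowtie 0.12.2 and the genome builds named are mm8 and mm9, per the submitters' processing notes; these are mouse builds, whereas cells and identifiers are human. Counter, human build, annotation and strand: not given in the sources used here. Counts were rounded and fitted with edgeR 4.0.16 in R 4.3.3 (filterByExpr, TMM, robust quasi-likelihood, two-sided, Benjamini-Hochberg over all genes tested), in all 6 libraries for protein genes and in replicates 2 and 3 for the noncoding RNAs. Sequences and lengths came from GENCODE 29. Alternatives used DESeq2 1.42.0 and limma 3.58.1, other filters and scalings, and left out each library. The scripts were tested on simulated data. Apart from depth, these held no difference between replicate 1 and the other replicates, so that test does not cover the real one.

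The members and lists were chosen with earlier results of these data known. Named were the 9 members, RUVBL1 and RUVBL2, the 4 smallest p-values of each list past the threshold, known noncoding RNAs with at least 1000 counts, and the 5 genes most like NEAT1. Some genes of the lists are not reported here. Deviations from the group means correlated at 0.939, 0.819 and 0.823 between libraries with the same replicate number, and on that ground a fit with the number as a block was made. Without the genes at 0 in replicate 1, the same correlations were 0.706, 0.409 and 0.438 over 15465 genes. Replicates 2 and 3 correlated as closely across numbers (0.807 and 0.817), so the values set replicate 1 apart and do not tell 2 from 3; the labels do not say what a number marks.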

Additional observations from a re-analysis of the deposited data

How the results depend on the processing

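SFPQ, NONO and RUVBL1 kept direction and call under all alternatives run, including each left-out library (SFPQ 0.14 to 0.17, NONO -0.27 to -0.25). Scaling by library totals alone gave log2 fold changes of 0.0266 for PSPC1 (edgeR adjusted p = 0.582), 0.0340 for HNRNPK (0.181), 0.0702 for HNRNPM (0.00985) and -0.0193 for RBM14 (0.732), and for NEAT1, MALAT1 and NORAD 1.06, 0.13 and 0.49. Without a low-count filter, PSPC1 was called at -0.0919 (edgeR adjusted p = 0.0333), HNRNPK was not at -0.0849 (0.0642), and the 3 RNAs stood at 0.945, 0.0119 and 0.372; with at least 50 counts they stood at 0.978, 0.0442 and 0.404. Leaving out 1 library gave -0.153 to -0.0925 for RBM14, -0.0781 to -0.0624 for HNRNPK, 0.959 to 0.963 for NEAT1, 0.0248 to 0.0300 for MALAT1 and 0.376 to 0.397 for NORAD. By library totals alone, 11 of the other paraspeckle proteins rose and 4 fell, 12 and 4 of the speckle proteins, 3 and 2 of the MALAT1 end factors, and 5 and 1 of the NORAD partners. With at least 50 counts 2 end factors rose, and without a filter 1 NORAD partner rose. Over left-out libraries 3 to 4 speckle proteins rose, 0 to 1 end factors rose and 2 to 5 fell, and 1 to 3 NORAD partners rose. The NEAT1 ratio was 1.49-fold with NORAD in place of MALAT1, and with at least 100 counts 3 known noncoding RNAs were at 0 in replicate 1. The cause of these changes was not tested. A fit with the replicate block changed no call among the protein members, with 1 risen and 3 fallen, and gave 7 and 13, 5 and 11, 1 and 4, and 3 and 3 for the lists, and replicates 2 and 3 alone gave 8 and 13, 6 and 11, 1 and 5, and 3 and 3; p-values bounded by counting noise, and a fit without the genes at 0 in replicate 1, both chosen after seeing the data, changed no call among the protein members and RUVBL1. Whether NEAT1 reads came from the long or the short form cannot be told from gene counts, and 2 libraries a group limit the spread known for the noncoding RNAs.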

Other observations

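The genes around NEAT1 and MALAT1 were looked at after the values of both were known. Of 9 protein-coding genes within 100 kb with at least 100 counts in every library, 1 rose and 1 fell, with log2 fold changes between -0.56 and 0.38. Over all genes tested in the 6 libraries, edgeR called 19.1% as risen and 23.1% as fallen. Nothing particular to these neighbours can be read from their count beside that. SLC25A45, a mitochondrial carrier gene near NEAT1, rose (log2 fold change 0.38, edgeR adjusted p = 0.000493), and ZNRD2 near MALAT1 fell (-0.56, edgeR adjusted p = 1.05e-05). ZNRD2 and FAM89B, also near MALAT1, had fractional counts, such as 369.42 and 595.58 in siRUVBL1 replicate 1. Some reads may thus have been split between them, and FAM89B was at 0.13 (edgeR adjusted p = 0.0869). FRMD8, which also lies near NEAT1, was at -0.00146 (edgeR adjusted p = 0.991). The counting did not state strand. A long intergenic RNA gene that overlaps MALAT1 on the opposite strand was listed at 0 in all 6 libraries. Its zeros alone do not tell how strand was handled.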
